A study of Mus musculus with 10 samples.

Results

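The cytosolic ribosome is built from a small 40S and a large 60S subunit, each made of ribosomal RNA and a fixed set of proteins. The genes of these proteins were followed through 5 culture conditions of mouse CD8+ T cells. Members were chosen by symbol, as Rpl or Rps followed by a number and at most 1 of the letters a, x, l or y, together with Rplp0, Rplp1, Rplp2 and Rpsa, with at least 10 reads summed over the 10 libraries. Among 23992 symbols listed, 81 matched the name pattern, and 79 had enough reads, 32 of the 40S subunit, 44 of the 60S subunit and 3 of its stalk. The 2 others were Rpl10l with 1 read and Rpl3l with 5 reads over all libraries, paralogs known mainly from testis and from heart and skeletal muscle.

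CD8+ T cells were isolated from the spleens of C57BL/6N mice, activated for 48 h with antibodies to CD3 and CD28, pooled, washed and kept for a further 48 h. There were 5 groups of 2 poly(A) RNA libraries: mouse IL-21 (100 ng/ml) with LDHi, IL-21 alone, human IL-2 (100 IU/ml) with LDHi, IL-2 alone, and no cytokine. LDHi is NCI-737, an inhibitor of lactate dehydrogenase known by its code name, given at 1 µM from activation onward and renewed with the cytokine, so effects on activation and on the later culture cannot be told apart. No group without cytokine received it, and the labels do not say whether a replicate was a separate animal or culture, so the p values measure how these libraries scatter, and that scatter may be technical.

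Ribosomal protein mRNAs are among the most abundant of a dividing cell, and their translation is switched on by the kinase complex mTORC1 through a pyrimidine-rich start of the mRNA, the 5′ terminal oligopyrimidine (TOP) motif, which the protein LARP1 binds. MYC raises the transcription of these genes and of the factors that assemble ribosomes. In T cells both are switched on by the antigen receptor and by cytokines such as IL-2, and activated CD8+ T cells make many new ribosomes as they grow and divide.

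The start regions of several members are shown because this pyrimidine tract is the best known feature that the symbols did not select for. The RefSeq table for GRCm38.p6 held 58 of the 79 members. Each window runs 5′ to 3′ on the strand of the gene, from 45 bases before the annotated start to 25 bases from it, and capitals mark the TOP-type words within 30 bases of the start, merged where they overlap. These are the word CTTTC, the word CTTTT, the word CCTTT and the word CTCTT. Among the windows printed, the start used lay 0 (Rps2) to 73 bases (Rpl14) from that of the transcript counted. In Rps25, not printed, it lay 575 bases away. A window may therefore miss the start of the mRNA that was counted. The windows are chr9:64173342-64173411 (plus strand) for Rpl4, chr2:26910762-26910831 (plus) for Rpl7a, chr9:120571472-120571541 (plus) for Rpl14, chr7:109519150-109519219 (plus) for Rpl27a, chr4:86857343-86857412 (minus) for Rps6, chr3:90213624-90213693 (minus) for Rps27, chr17:24720018-24720087 (plus) for Rps2 and chr9:66946041-66946110 (plus) for Rps27l.
Rpl4: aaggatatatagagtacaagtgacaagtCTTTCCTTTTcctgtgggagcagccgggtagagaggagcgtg
Rpl7a: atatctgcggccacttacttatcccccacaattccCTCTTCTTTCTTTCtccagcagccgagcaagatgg
Rpl14: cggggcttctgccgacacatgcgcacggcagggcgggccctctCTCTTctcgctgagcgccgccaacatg
Rpl27a: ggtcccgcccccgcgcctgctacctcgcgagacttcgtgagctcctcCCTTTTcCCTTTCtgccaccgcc
Rps6: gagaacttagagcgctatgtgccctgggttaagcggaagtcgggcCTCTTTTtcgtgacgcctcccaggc
Rps27: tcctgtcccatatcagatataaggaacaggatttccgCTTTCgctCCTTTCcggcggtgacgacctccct
Rps2: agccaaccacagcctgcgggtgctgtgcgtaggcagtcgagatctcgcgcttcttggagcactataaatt
Rps27l: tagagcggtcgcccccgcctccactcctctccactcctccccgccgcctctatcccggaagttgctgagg
At least 1 of these words stood within 30 bases of the start, on the sense strand, in 31 of the 58 members (53.4%), against 17.5% of the 10442 other promoters and 17.7% of all 10500. The 4 words share bases with each other. The 6 members printed first hold such a word, and Rps2 and Rps27l hold none in this window. The search also took words before the annotated start, which by that annotation are not part of the mRNA. In Rpl4 all marked bases lie before it. A word found here is therefore not the same as a TOP start of the mRNA. ACTTCCGG or its reverse complement CCGGAAGT, the sequence bound by ETS factors, stood on either strand in the 300 bases around the start of 11 members (19.0%) and of 7.97% of the other promoters. TATAAA was found in 5 members (8.62%) against 7.499% of other promoters, CACGTG in 5 (8.62%) against 9.86%, and AAGATGGC in 4 (6.90%) against 4.56%. For IL-21 with LDHi against IL-21 the median log2 fold change was 0.40 in members with a TOP-type word (n = 31) and 0.40 in those without one (n = 27), and for IL-2 with LDHi against IL-2 these were -0.28 and -0.26.

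Ribosomal protein genes also carry small nucleolar RNAs (snoRNAs), guides for ribosomal RNA modification, inside their introns. By the GENCODE annotation 29 of the 79 members (36.7%) held 56 snoRNA genes within their bounds, against 216 of 13431 other tested genes (1.61%). Rpl4 held 5, Rpl13a held 4 and Rpl7a held 3. For IL-2 with LDHi against IL-2 the median log2 fold change was -0.25 in the members that host snoRNAs (n = 29) and -0.24 in those that do not (n = 50).

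All 79 members passed the filter on low counts and were tested, and none was at 0 reads in any library. Levels are RPKM, reads per kilobase of transcript and per 1e6 reads of the library, as the authors computed them. Rpl12 and Rpl23a, both of the 60S subunit, had the highest mean levels over the 10 libraries, 2260 and 2161 RPKM, and Rps4l and Rpl39l the lowest, 1.04 and 0.674 RPKM. RPKM depends on the transcript length used (327 to 5134 bases, median 703), so the order of members is less firm than the changes of one member between groups: Rps15a, at 67.4 to 149 RPKM, was counted on the longest transcript. The median ratio of the highest to the lowest group mean was 1.499 over the members and 2.028 over all genes tested. For 41 members this ratio was below 1.5, and for 6 it was 2 or more: Rps2 (2.71), Rps27 (2.38), Rps29 (2.09), Rps27l (2.61), Rps4l (3.82) and Rpl39l (3.94).

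The members took 10.2 and 11.02% of the reads on kept transcripts in IL-21 with LDHi, 9.23 and 6.98% in IL-21, 7.76 and 8.20% in IL-2 with LDHi, 8.55 and 9.43% in IL-2, and 9.02 and 7.58% without cytokine (replicates 1 and 2). By this measure both libraries of IL-21 with LDHi lay above the 8 others. As a percent of the authors' library total they held 7.07 and 7.71%, against 7.49% in IL-2 replicate 2, so replicate 1 lay below that library. The share of kept reads was 10.6 ± 0.58% in IL-21 with LDHi (SD, n = 2), against 8.11 ± 1.59% in IL-21. An exact permutation test of 2 against 2 libraries cannot give a two-sided p below 0.333. Both libraries of IL-2 with LDHi lay below both of IL-2. In RPKM the highest group mean was that of IL-21 with LDHi for 45 members, of IL-21 for 1, of IL-2 for 30 and of no cytokine for 3. The lowest was that of IL-21 for 49 members, but this rested on 1 library, IL-21 replicate 2, whose RPKM are low. Without it the lowest was that of IL-21 for none, of IL-2 with LDHi for 29 and of no cytokine for 36. With no cytokine replicate 2 left out as well, the lowest was that of IL-2 with LDHi for 49 and of no cytokine for 10. As reads per 1e6 kept reads, with all libraries, IL-21 with LDHi was highest for 55 members and IL-2 for 19, and IL-21 was lowest for 29 and IL-2 with LDHi for 26. These alternatives were chosen after seeing the data.

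**Figure D1:**
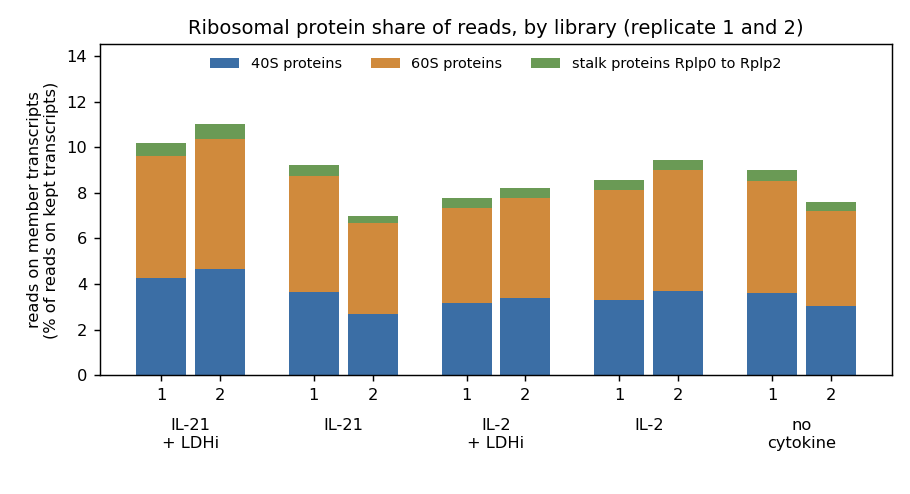
Share of reads (percent of the reads on kept transcripts, y axis from 0) on members in each of the 10 libraries, stacked as 40S, 60S and stalk proteins. The bars of IL-21 with LDHi are the tallest (10.2 and 11.02%), and that of IL-21 replicate 2 is the shortest (6.98%).

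2 libraries stood apart from their replicates in these genes. In IL-21 replicate 2 the median member was 0.48 lower than in replicate 1 (log2), 70 of 79 members were lower, and single differences ran from -1.25 to 0.65. This library also had the smallest part of its reads on kept transcripts, 59.9%, against 69.1 to 79.4% in the 9 others. RPKM are scaled to the authors' library total, so the RPKM of this library are low for that reason too, while the fold changes and read shares given here rest on counts on kept transcripts. Without cytokine, replicate 2 had 78 of 79 members below replicate 1. The median changes of members in comparisons of these groups are therefore given with and without these libraries. Authors' totals ran from 45138204 to 62848913 reads per library, and reads on kept transcripts from 27137186 to 46656186. The summed level of 5 CD8+ T cell markers was 1117 to 1590 RPKM in all libraries and Cd4 stayed at 0.19 to 1.05 RPKM. The 3 basophil and mast cell markers (Mcpt8, Cpa3, Ms4a2) summed to 58.8 and 77.6 RPKM in IL-21 and 181.5 and 392 RPKM without cytokine, against 0.803 to 2.52 RPKM in the 6 other libraries. The 4 macrophage and granulocyte markers listed (Lyz2, Csf1r, Itgam, Mpo) summed to 45.7 and 52.3 RPKM in IL-21 and 138 and 191 RPKM without cytokine, against 1.62 to 12.2 RPKM elsewhere. These markers move with every comparison of IL-21 or no cytokine below, and their part in the results was not tested. In bulk RNA, fewer cells of a type and less RNA per cell cannot be told apart.

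**Figure D2:**
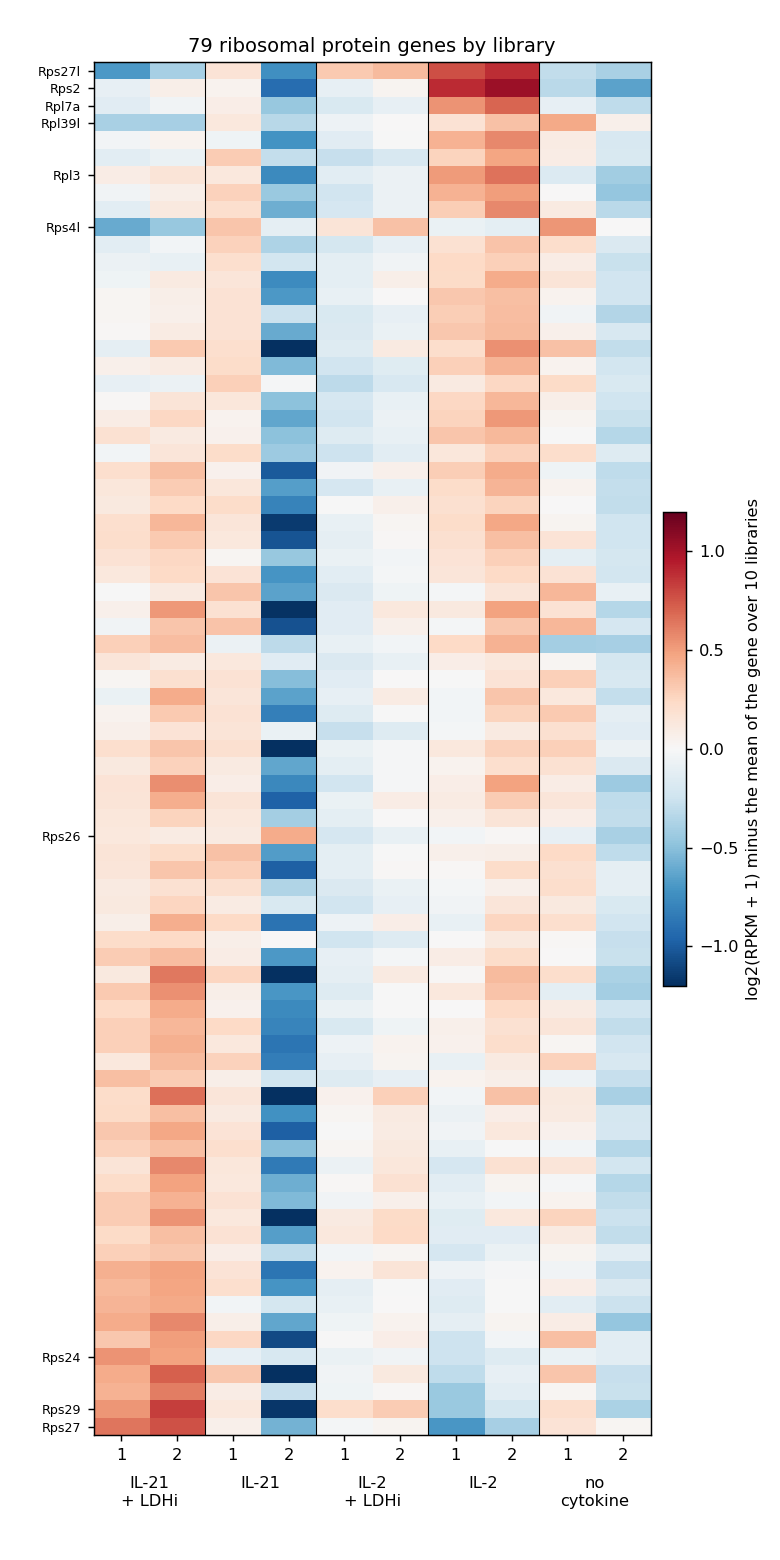
Each of the 79 members (rows) in the 10 libraries (columns, replicates 1 and 2 of each group), as log2(RPKM + 1) minus the mean of the gene over the libraries, red above and blue below, with rows sorted by IL-2 minus IL-21 with LDHi and 10 rows named. The top rows (Rps27l, Rps2, Rpl7a) are red in IL-2, the bottom rows (Rps27 and Rps29 among them) are red in IL-21 with LDHi, and most rows of IL-21 replicate 2 are blue.

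Against IL-21 alone, IL-21 with LDHi had higher levels of 21 members and a lower level of 1, a median log2 fold change of 0.41 over the 79 members against -0.03 over all genes tested, and a positive value in 71 of 79. Of all genes tested 31.3% were called in this comparison, 11.1% higher and 20.3% lower. A call is an adjusted p below 0.05 in edgeR's quasi-likelihood test, with Benjamini-Hochberg adjustment over 14357 genes. By subunit, 10 of 32 members of the 40S, 10 of 44 of the 60S and 1 of 3 stalk proteins were called higher, with medians of 0.56, 0.33 and 0.74.

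Rps27 and Rps29 are zinc-binding proteins of the 40S subunit. Rps27 was at 2605 and 2830 RPKM in IL-21 with LDHi and at 1737 and 1126 RPKM in IL-21. The groups did not overlap, and Rps27 rose by 0.91 ± 0.15 (log2 fold change ± SE, edgeR adjusted p = 0.00161). Rps29 was at 2099 and 2579 RPKM in IL-21 with LDHi, against 1589 and 646 RPKM in IL-21, a rise of 1.09 ± 0.30 (edgeR adjusted p = 0.0234). Both libraries with the inhibitor were above both without it. Rps4x, an X-linked 40S protein, rose by 0.66 ± 0.21, and Rps27a, which is made as a fusion with ubiquitin, rose by 0.68 ± 0.22 (edgeR adjusted p = 0.0387 and 0.0425). In each of these the IL-21 libraries were spread more widely than the libraries with LDHi. Of the 22 alternatives, the call of Rps4x was lost in 10 and that of Rps27a in 12, each time including the fit without IL-21 replicate 2.

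Rplp1, an acidic protein of the stalk that recruits elongation factors, was at 2590 and 2835 RPKM in IL-21 with LDHi and at 1999 and 1235 RPKM in IL-21. It rose by 0.74 ± 0.19 (edgeR adjusted p = 0.0175), while its partners Rplp0 (0.54 ± 0.23) and Rplp2 (0.86 ± 0.31) were not called, with adjusted p of 0.104 and 0.0656. Among 60S proteins, Rpl36a rose by 0.70 ± 0.17 and Rpl8 by 0.71 ± 0.24 (edgeR adjusted p = 0.0151 and 0.0478). Rpl5, which with Rpl11 and the 5S RNA forms the particle that can bind MDM2, was at 873 and 918 RPKM in IL-21 with LDHi and at 783 and 565 RPKM in IL-21, a rise of 0.39 ± 0.12 (edgeR adjusted p = 0.0305). Rpl11 had 0.27 ± 0.20 (adjusted p = 0.342). The call of Rpl8 was lost in 14 of the 22 alternatives and that of Rpl5 in 11, both also without IL-21 replicate 2, where Rpl8 had a log2 fold change of 0.35. Rps6, the 40S protein phosphorylated by the S6 kinases, had 1299 and 1257 RPKM in IL-21 with LDHi, against 1286 and 1070 RPKM in IL-21, and was not called (0.09 ± 0.12, adjusted p = 0.606).

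The number of members called higher hung on single libraries and on the fit. In a fit of only the 2 groups compared, and in both limma fits, 1 member was called higher, Rps27, among 16.9% of all genes in that fit and 21.2 and 25.4% in the limma fits. The share of all genes called moved with the library left out too, but not always in the same direction as the count of members. The median was 0.68 with replicate 1 of IL-21 left out and 0.20 with its replicate 2 left out. It was 0.50 and 0.35 without replicate 1 or 2 of IL-21 with LDHi. Without IL-2 replicate 1 or 2 it was 0.41 and 0.42, and without either library of IL-2 with LDHi 0.41. With both IL-21 replicate 2 and no cytokine replicate 2 left out, an alternative chosen after seeing the data, 24 members were called higher and 5 lower, among 46.5% of all genes. The median stayed positive in every alternative tried, between 0.20 and 0.68, and Rps27 was called in every one. The nuclear RNAs Malat1 and Neat1, listed as a sign of RNA quality, summed to 510 and 459 RPKM in IL-21 with LDHi, 300 and 252 RPKM in IL-21, 232 and 221 RPKM in IL-2 with LDHi, 151 and 126 RPKM in IL-2 and 298 and 275 RPKM without cytokine, and their part in the result was not tested.

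In IL-2 the inhibitor went with lower levels: 18 members fell and 1 rose, the median was -0.25 against 0.01 over all genes tested, and 64 of 79 members had a negative value. Of all genes tested 39.4% were called here, 17.8% higher and 21.6% lower, so the 18 of 79 that fell are close to the background share. The calls lay mostly in the large subunit, with 15 of 44 members of the 60S and 3 of 32 of the 40S called lower, and medians of -0.36 and -0.18.

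Rps2, a 40S protein near the mRNA entry channel, was at 1122 and 1229 RPKM in IL-2 with LDHi and at 2241 and 2456 RPKM in IL-2. It fell by 1.04 on the log2 scale (SE 0.21, edgeR adjusted p = 0.00419), and the groups were far apart. Rpl7a, a 60S protein, was at 887 and 940 RPKM in IL-2 with LDHi, against 1464 and 1641 RPKM in IL-2, a log2 fold change of -0.81 ± 0.13 (edgeR adjusted p = 0.00138). Rpl3, which reaches toward the peptidyl transferase centre, was at 1121 and 1166 RPKM in IL-2 with LDHi and at 1738 and 1915 RPKM in IL-2 (-0.72 ± 0.19, edgeR adjusted p = 0.0143). In none of these did the groups overlap.

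Rpl41, the smallest ribosomal protein, had 1322 and 1477 RPKM in IL-2 with LDHi and 2073 and 2201 RPKM in IL-2, and fell (-0.65 ± 0.18). Further 60S proteins that fell were Rpl24 (-0.65 ± 0.14), Rpl10a (-0.62 ± 0.20), Rpl22 (-0.61 ± 0.15) and Rpl4 (-0.52 ± 0.13), with edgeR adjusted p between 0.00612 and 0.0329. Rpl22 is known for its part in early T cell development. Rpsa, the 40S protein also described as a laminin receptor, was at 1053 and 1105 RPKM in IL-2 with LDHi and at 1480 and 1541 RPKM in IL-2 (-0.53 ± 0.14, edgeR adjusted p = 0.0175). Rps27 moved the other way, with 1640 and 1704 RPKM in IL-2 with LDHi and 1025 and 1262 RPKM in IL-2, a rise of 0.51 ± 0.15 (edgeR adjusted p = 0.0220). It was the 1 member called higher. Its paralog Rps27l, a target of p53, had 86.5 and 90.2 RPKM in IL-2 with LDHi and 119 and 128 RPKM in IL-2, with a log2 fold change of -0.52 ± 0.18 (edgeR adjusted p = 0.0489). This call was near the threshold and was lost in 13 of the 22 alternatives.

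The count of 18 was smaller with any library of these 2 groups left out, and so was the share of all genes called. The median was -0.33 and -0.16 without IL-2 replicate 1 or 2, and -0.21 and -0.31 without replicate 1 or 2 of IL-2 with LDHi. In a fit of only the 2 groups compared, 46 members were called lower and 6 higher, among 66.7% of all genes. Rps2 and Rpl7a were called lower under every alternative tried, and both limma fits called these 2 lower and no other member. The median over the members stayed negative in each alternative, between -0.33 and -0.13.

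The difference of the log2 fold changes, IL-21 with LDHi over IL-21 minus IL-2 with LDHi over IL-2, was called positive for 17 members and negative for 1, Rps4l. Its median over members was 0.65 against -0.08 over all genes tested, and it was positive in 76 of 79. Of all genes tested 21.7% were called, 7.98% positive and 13.8% negative. The members called positive were 6 of 32 in the 40S subunit and 11 of 44 in the 60S.

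The largest differences were those of Rps2 (1.39 ± 0.29, edgeR adjusted p = 0.00965), Rps12 (1.11 ± 0.34), Rpl3 (1.09 ± 0.26), Rps27a (1.08 ± 0.31), Rpl36a (1.05 ± 0.25) and Rpl27a (1.00 ± 0.23). The call of Rps12 was lost in 12 of the 22 alternatives, among them the fit without IL-21 replicate 2. Both limma fits called 1 member positive, Rpl14. The effects behind the value of Rps2 were 0.35 ± 0.21 in IL-21, which was not called (edgeR adjusted p = 0.231), and -1.04 ± 0.21 in IL-2. In IL-21 Rps2 was at 1121 and 1258 RPKM with LDHi and at 1240 and 636 RPKM without. Rpl5 (0.71 ± 0.16), Rpsa (0.85 ± 0.20) and Rpl22 (0.96 ± 0.21) were also called positive. Of the 22 alternatives, the call of Rps27a was lost in 9, those of Rpl3 and Rpsa in 8 each, and that of Rpl5 in 7. Those of Rpl22, Rpl27a and Rpl36a were lost in 5 each, and that of Rps2 in 2. Rps27 rose with the inhibitor in both cytokines, and its difference was not called (0.40 ± 0.21, edgeR adjusted p = 0.201). The count of 17 and the share of all genes called both hung on the library left out. The median was 0.99 and 0.40 without IL-21 replicate 1 or 2, and 0.74 and 0.58 without IL-2 replicate 1 or 2. It was 0.74 and 0.57 without replicate 1 or 2 of IL-21 with LDHi, and 0.59 and 0.70 without those of IL-2 with LDHi. With IL-21 replicate 2 and no cytokine replicate 2 both left out, 44 members were called positive, among 41.0% of all genes, with a median of 0.40.

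**Figure D3:**
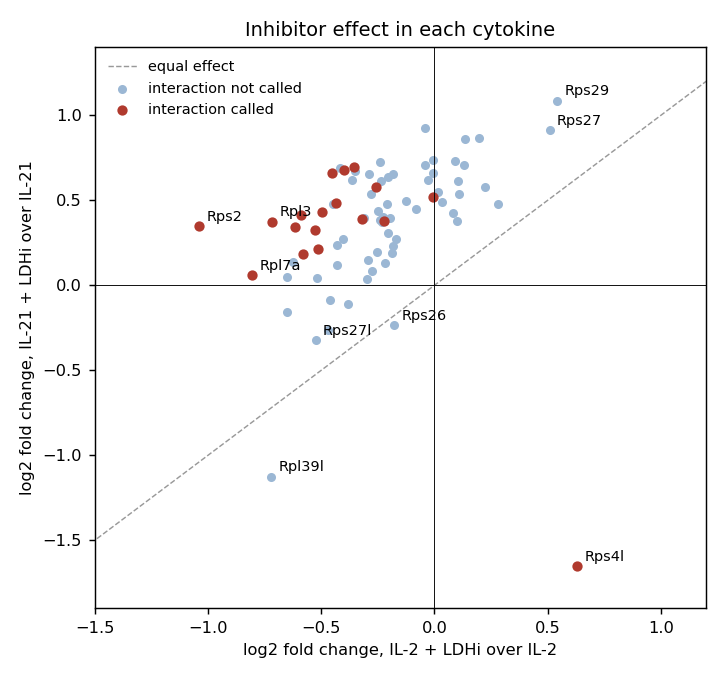
Log2 fold change of each of the 79 members with LDHi in IL-2 (x axis) and in IL-21 (y axis), with the line of equal effect dashed and members with a called difference in red. Of the points 76 lie above the line, and Rps4l lies far below it.

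Under the inhibitor 20 members were higher in IL-21 and 2 were lower, with a median of 0.45 over members against 0.01 over all genes tested and a positive value in 76 of 79. Of all genes tested 26.1% were called, 9.38% higher and 16.7% lower. This comparison holds neither of the 2 libraries that stood apart, and the median was 0.47 in the 40S and 0.43 in the 60S.

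Rps24, a 40S protein mutated in some patients with Diamond-Blackfan anaemia, was at 2917 and 2799 RPKM in IL-21 with LDHi and at 1903 and 1947 RPKM in IL-2 with LDHi. It rose by 0.75 ± 0.12 (edgeR adjusted p = 0.00146). Rps27 was at 2605 and 2830 RPKM in IL-21 with LDHi, against 1640 and 1704 RPKM in IL-2 with LDHi, a rise of 0.88 ± 0.15 (edgeR adjusted p = 0.00206). Neither gene had overlapping groups. Rps28 rose by 0.72 ± 0.14 and Rps7 by 0.67 ± 0.19 in the 40S, Rplp1 rose by 0.70 ± 0.19 in the stalk, and Rpl36a rose by 0.69 ± 0.17 in the 60S. Rps6 was at 1299 and 1257 RPKM in IL-21 with LDHi and at 1042 and 1109 RPKM in IL-2 with LDHi (0.43 ± 0.12, edgeR adjusted p = 0.0250), and Rpl5 and Rpsa each rose by 0.45 (SE 0.12 and 0.14), the call of Rpsa being lost in 12 of the 22 alternatives. Rps27l was one of the 2 that fell, with 42.6 and 52.2 RPKM in IL-21 with LDHi and 86.5 and 90.2 RPKM in IL-2 with LDHi (-0.72 ± 0.19, edgeR adjusted p = 0.0200).

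In a fit of only these 2 groups 71 members were called higher, among 56.0% of all genes, and with IL-21 replicate 2 and no cytokine replicate 2 left out of the joint fit 70 were called higher, among 49.3%. Both limma fits, on RPKM, called 0 members higher, with 6 higher at an unadjusted p below 0.05, and called Rps27l and Rps4l lower. The count of members called higher hung on the library left out, and so did the share of all genes called. The median was 0.45 without either IL-21 library, and 0.45 and 0.44 without IL-2 replicate 1 or 2. It was 0.53 and 0.38 without replicate 1 or 2 of IL-21 with LDHi, and 0.40 and 0.49 without those of IL-2 with LDHi. The median stayed between 0.27 and 0.53 in all alternatives.

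**Figure D4:**
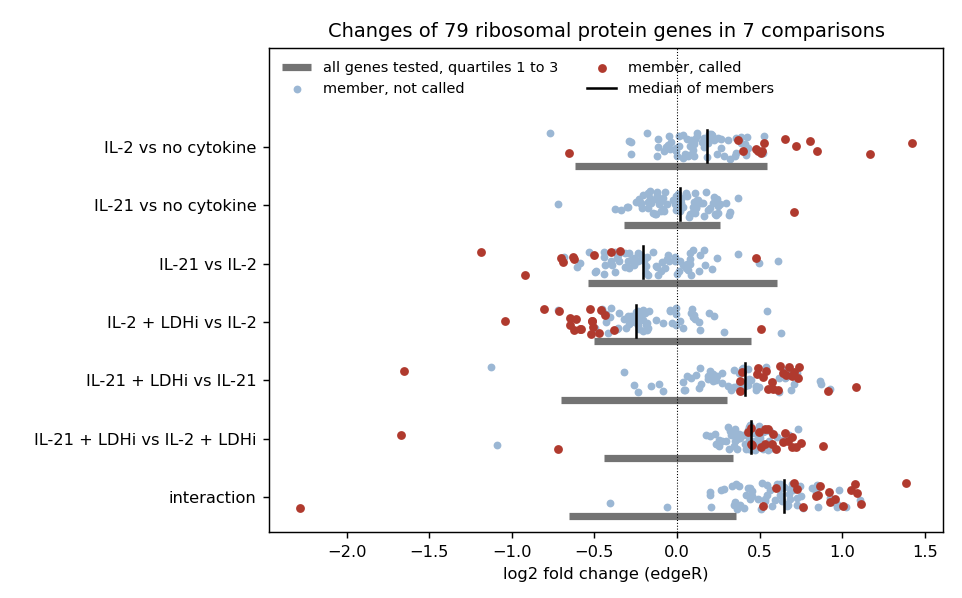
Log2 fold changes (x axis) of the 79 members in the 7 comparisons, members called at an adjusted p below 0.05 in red, with the median of the members as a black line and quartiles 1 to 3 of all genes tested as a grey bar. The median is 0.41 for IL-21 with LDHi against IL-21, 0.45 for IL-21 with LDHi against IL-2 with LDHi, and -0.25 for IL-2 with LDHi against IL-2.

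With IL-2 against no cytokine, 13 of 79 members rose and 1 fell, with a median of 0.18 over members and -0.03 over all genes tested, and 61 of 79 were positive. Of all genes tested 50.5% were called, 25.6% higher and 24.8% lower, and 14 of 79 members (17.7%). Rps2 was at 2241 and 2456 RPKM in IL-2 and at 963 and 768 RPKM without cytokine, a rise of 1.42 ± 0.21 (edgeR adjusted p = 0.000554). Rps27l was at 119 and 128 RPKM in IL-2, against 56.1 and 52.7 RPKM without cytokine (1.17 ± 0.19, edgeR adjusted p = 0.000882). The groups were far apart for both.

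In the 60S subunit Rpl3 was at 1738 and 1915 RPKM in IL-2 and at 1090 and 913 RPKM without cytokine (0.85 ± 0.19), Rpl7a rose by 0.80 ± 0.13, Rpl14 by 0.72 ± 0.11, and Rpl41 by 0.65 ± 0.18 (edgeR adjusted p between 0.000549 and 0.0147). Rpl22, Rpl4, Rpsa and Rpl5 rose by 0.53, 0.51, 0.51 and 0.37. The call of Rpl5 was lost in 10 of the 22 alternatives. Those of Rpl22 and Rpl4 were lost in 4 each, and those of Rpsa and Rpl41 in 5 each. Rps27 was at 1025 and 1262 RPKM in IL-2 and at 1861 and 1697 RPKM without cytokine, and was the 1 member that fell (-0.66 ± 0.15, edgeR adjusted p = 0.00516). The number that rose hung on the library left out, and so did the share of all genes called. The median was 0.23 and 0.11 without IL-2 replicate 1 or 2. It was 0.36 and 0.03 without no cytokine replicate 1 or 2, and 0.18 without either IL-21 library. With IL-21 replicate 2 and no cytokine replicate 2 both left out, 21 rose and 8 fell, with a median of 0.02. Rps2, Rps27l, Rpl3, Rpl7a and Rpl14 were called higher under every alternative tried.

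Against no cytokine, 1 member was called with IL-21, in the upward direction. Of all genes 11.5% were called, 5.65% higher and 5.89% lower. At an unadjusted p below 0.05 in edgeR there were 4 members (5.06%), against 27.6% of all genes tested. The median over members was 0.02 in this comparison, and it moved both ways: it was -0.27 and 0.24 without IL-21 replicate 1 or 2, 0.18 and -0.14 without no cytokine replicate 1 or 2, 0.07 with both replicates 2 left out, and -0.06 when libraries were scaled by their size alone. The member called was Rps26, a 40S protein at the mRNA exit channel, at 1282 and 1625 RPKM in IL-21 and 1113 and 909 RPKM without cytokine (0.71 ± 0.19, edgeR adjusted p = 0.0475). Its level was highest in IL-21 replicate 2, where most members were low, and the call was lost in 16 of the 22 alternatives, among them the fit without IL-21 replicate 2. The number of calls in this comparison hung on the library left out, and so did the share of all genes called.

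Against IL-2, 9 members were lower in IL-21 and 1 was higher, among 49.6% of all genes, 24.9% higher and 24.7% lower. Rps2 was at 1240 and 636 RPKM in IL-21 and at 2241 and 2456 RPKM in IL-2 (-1.19 ± 0.21, edgeR adjusted p = 0.00168), and Rps27l was at 77.4 and 41.2 RPKM in IL-21, against 119 and 128 RPKM in IL-2 (-0.92 ± 0.19, edgeR adjusted p = 0.00353). The 2 replicates of IL-21 lay far apart in both genes, and all were below the IL-2 libraries. Rpl22 (-0.70), Rpl3 (-0.69), Rps27a (-0.63), Rpl7a (-0.63) and Rpsa (-0.40) were lower as well. Rps27 was called higher (0.48 ± 0.15, edgeR adjusted p = 0.0237) although its groups overlapped, with 1737 and 1126 RPKM in IL-21 and 1025 and 1262 RPKM in IL-2. The count of members lower in IL-21 hung on the library left out, and so did the share of all genes called. The median over members was -0.21. It was -0.53 without IL-21 replicate 1 and turned to 0.04 without IL-21 replicate 2. Without IL-2 replicate 1 or 2 it was -0.30 and -0.12. With IL-21 replicate 2 and no cytokine replicate 2 both left out, 15 members were called higher in IL-21 and 9 lower, among 59.0% of all genes, so the balance of the calls turned. The calls of Rps27a and Rpsa were lost in 11 and 12 of the 22 alternatives.

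**Figure D5:**
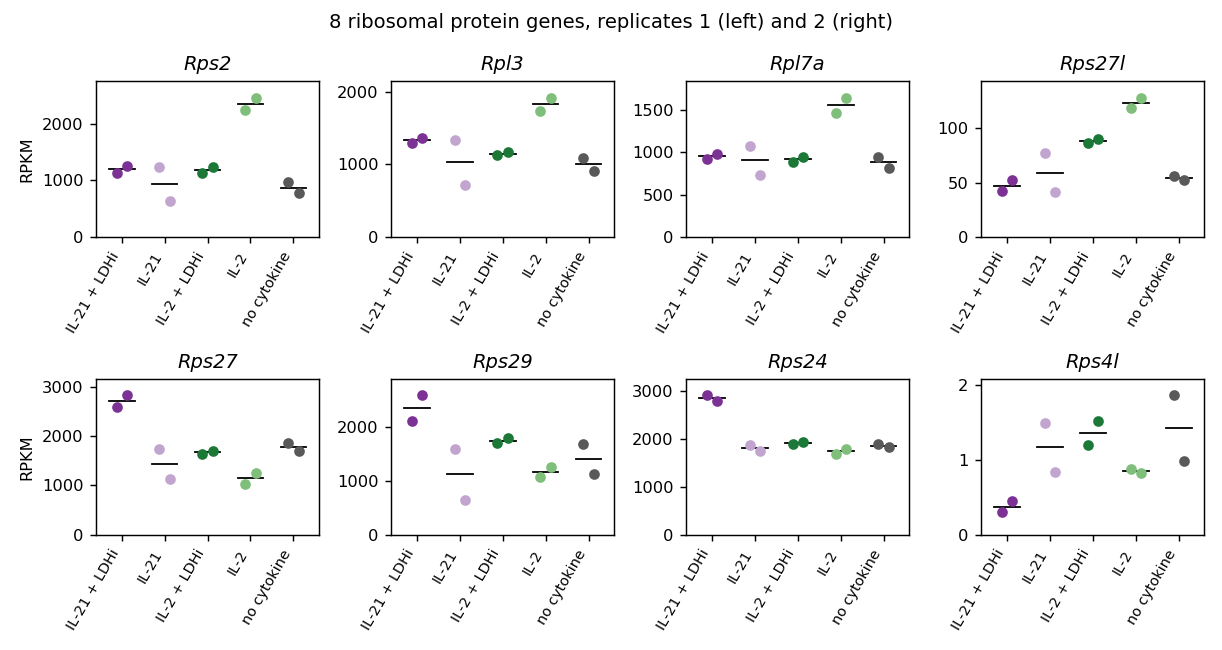
RPKM (y axes from 0) of 8 members in each library by group, replicate 1 left and 2 right, with the mean of each group as a line. Rps2, Rpl3, Rpl7a and Rps27l are highest in IL-2, Rps27, Rps29 and Rps24 are highest in IL-21 with LDHi, and Rps4l is lowest there.

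The make-up of the set also differed, apart from its size. As a share of all member reads, a measure that does not change when all members move together, Rps2 took 1.58 and 1.63% in IL-21 with LDHi, 1.80 and 1.52% in IL-21, 1.95 and 1.98% in IL-2 with LDHi, 3.32 and 3.28% in IL-2, and 1.46 and 1.46% without cytokine. The IL-2 libraries agreed closely and stood far above the others. Rpl3 took 3.51 and 3.48% in IL-2 and 2.26 to 2.65% in the 8 other libraries, and Rpl7a took 1.88 and 1.89% in IL-2 and 1.10 to 1.52% elsewhere. Rps27 ran the other way, with 2.12 and 2.11% in IL-21 with LDHi, 1.45 and 1.55% in IL-21, 1.64 and 1.58% in IL-2 with LDHi, 0.874 and 0.969% in IL-2, and 1.63 and 1.86% without cytokine. Rps26 took 1.74% in IL-21 replicate 2 and 0.721 to 0.833% in the 9 other libraries.

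2 members were near the lower limit of detection. Rps4l, which the RefSeq table lists as a transcribed pseudogene, was at 0.303 and 0.445 RPKM in IL-21 with LDHi, 1.499 and 0.844 RPKM in IL-21, 1.201 and 1.52 RPKM in IL-2 with LDHi, 0.877 and 0.826 RPKM in IL-2, and 1.87 and 0.989 RPKM without cytokine. It was the 1 member that fell in IL-21 with LDHi against IL-21 (-1.65 ± 0.41, edgeR adjusted p = 0.0142), and it fell against IL-2 with LDHi (-1.67 ± 0.40, edgeR adjusted p = 0.0147). Rpl39l, a paralog of Rpl39 known from male germ cells, was at 0.253 and 0.248 RPKM in IL-21 with LDHi and at 0.795 and 0.301 RPKM in IL-21, and was not called (-1.13 ± 0.49, adjusted p = 0.112). The call of Rps4l against IL-21 was lost without replicate 1 of IL-21 with LDHi and in a fit of only the 2 groups. Over all libraries Rps4l had 511 reads and Rpl39l 285.

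Several members share sequence with copies elsewhere in the genome. GENCODE names 298 pseudogenes after 60 of the members, 24 of them after Rps12, and the sources used here do not give how the authors treated reads that fit several places. In the tables Rps27rt and Rpl34-ps1, copies of Rps27 and Rpl34, stand at the place of their parent genes and hold 99.8 to 99.9% and 98.8 to 99.6% as many reads as these in each library, so the same reads were counted for both. Rps27 was kept on a transcript of 575 bases and Rps27rt on one of 345, so their RPKM differ although their reads do not. Other listed copies and paralogs held 5.71 to 57.4% as many reads as their parents, the most in Rpl36al beside Rpl36a (27.9 to 57.4%), and the values of these members are less certain.

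Related gene lists were read in the same fits, beside the shares of all genes called that stand above. Of 7 snoRNA host genes that code for no known protein, 5 rose with IL-2 against no cytokine (median 1.56), 5 fell with LDHi in IL-2 (median -1.03) and 5 rose with LDHi in IL-21 (median 0.67). Snhg1 (means ± SD, n = 2, here and below) was at 115 ± 4.7 RPKM in IL-21 with LDHi and 63.6 ± 13 RPKM in IL-21 (0.83 ± 0.13, edgeR adjusted p = 0.00124), and at 72.4 ± 1.9 RPKM in IL-2 with LDHi and 196 ± 31 RPKM in IL-2 (-1.48 ± 0.13, edgeR adjusted p = 6.12e-05). The difference between the inhibitor effects was called positive for 5 of the 7, with a median of 1.70. Some of these transcripts, Gas5 among them, begin with the same pyrimidine tract as ribosomal protein mRNAs.

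Of 17 translation factors and other mRNAs known for such a start, 9 rose with IL-2 against no cytokine (median 0.54) and 10 fell with LDHi in IL-2 (median -0.50), while with LDHi in IL-21 2 rose and 2 fell (median -0.16). Npm1, a nucleolar chaperone of ribosome assembly, was at 585 ± 0.255 RPKM in IL-2 with LDHi and 1467 ± 29.9 RPKM in IL-2 (-1.37 ± 0.18, edgeR adjusted p = 0.000497). Tpt1 was the most changed in IL-21, at 6821 ± 218 RPKM with LDHi and 3383 ± 676 RPKM without (0.99 ± 0.12, edgeR adjusted p = 0.00033). Among 9 ribosome parts outside the symbol pattern, Rps3a1 rose with LDHi in IL-21 by 0.63 ± 0.13, and Rpl22l1, the paralog of Rpl22, fell with LDHi in IL-2 by 1.13 on the log2 scale (SE 0.30).

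Most of the 26 ribosome biogenesis factors were called higher with the inhibitor in both cytokines. With LDHi 15 rose in IL-21 (median 0.43) and 17 rose in IL-2 (median 0.57). Ubtf, the upstream binding factor of RNA polymerase I, was at 43.0 ± 0.59 RPKM in IL-2 with LDHi and 17.2 ± 0.26 RPKM in IL-2 (1.28 ± 0.12), and Polr1b, a subunit of that polymerase, was at 14.99 ± 1.25 RPKM in IL-21 with LDHi and 7.498 ± 1.16 RPKM in IL-21 (0.97 ± 0.12). The difference between the inhibitor effects was called negative for 2 of the 26, with a median of -0.04.

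Of 20 regulators of ribosomal protein synthesis, 4 rose and 5 fell with LDHi in IL-2. Myc was at 46.4 ± 0.069 RPKM in IL-2 with LDHi and 87.6 ± 3.3 RPKM in IL-2 (-0.96 ± 0.15, edgeR adjusted p = 0.00106), and the translation repressor Eif4ebp1 was at 6.63 ± 0.34 RPKM and 50.2 ± 4.2 RPKM in the same groups (-2.96 ± 0.18, edgeR adjusted p = 1.36e-05). With LDHi in IL-21, 2 rose and 4 fell, Eif4ebp1 among them (-1.22 ± 0.19). Of 76 mitochondrial ribosomal protein genes, 6 rose and 2 fell with LDHi in IL-21 and 6 rose and 10 fell with LDHi in IL-2, with medians of 0.09 and -0.05. With IL-2 against no cytokine 30 of the 76 rose and 2 fell (median 0.41), Mrpl45 the most by p (1.23 ± 0.13, edgeR adjusted p = 8.39e-05).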

How the data were processed

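Per the labels, mRNA libraries (Kapa mRNA HyperPrep) were sequenced on a HiSeq3000. Per the submitters' processing notes, Bowtie2 2.2.6, TopHat2 2.2.1, SAMtools 0.1.8, bedtools 2.25.0 and edgeR were used with mm10. Strand and multiple-mapping settings are not given in the sources used here. The deposited tables hold the authors' read counts per RefSeq transcript, not normalized, and the RPKM that the authors computed from them with the transcript length and a library total. For each of 23992 symbols the transcript with most reads was kept, of 31682 transcripts (4343 symbols had several). Depth is given in the report.

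The counts of all 10 libraries entered 1 quasi-likelihood model of the 5 groups (edgeR 4.0.16 on R 4.3.3, robust, TMM), after filterByExpr with a minimum count of 10 and a minimum total of 15. There were 7 comparisons, two-sided, with Benjamini-Hochberg adjustment over 14357 genes tested. SE is log2 fold change over the root of F. The test was tested on simulated data. Alternatives were RLE, library size alone, scaling from other genes, DESeq2 1.42.0, no filter, RPKM 5 in 2 libraries, limma 3.58.1 on log2(RPKM + 1) and log2(RPKM + 0.1), a fit restricted to the compared groups, a replicate block, the longest transcript, and each library left out. Leaving out both IL-21 replicate 2 and no cytokine replicate 2 was added after seeing the data.

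The members and lists were chosen with earlier results of these data known. Named are 19 members fixed for their role, 5 paralogs, in each comparison up to 6 called members with the largest change in each direction among those whose groups do not overlap, the 2 highest and 2 lowest by mean RPKM, and up to 4 genes of each list by p. Sequences and start sites came from the RefSeq tables (GRCm38.p6), gene bounds from GENCODE. Of the results that this rule names, one is not reported here. Other features stay out. Tables and plots were made in Python 3.11.15 (numpy 2.4.6, pandas 2.3.3, matplotlib 3.10.9).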

Additional observations from a re-analysis of the deposited data

Results flagged for a closer look

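The effect of the inhibitor differed between IL-21 and IL-2, by the interaction term in edgeR, for 18 of the 79 members (22.8%), against 21.7% of all genes tested, so the share called in either direction is near the background. By direction, 17 were positive, against 7.98% of all genes, and 1 was negative, against 13.8%. The positive count hung on the library left out, and so did the share of all genes called. The median over members ran from 0.40 to 0.99 when 1 library at a time was left out. As IL-21 effect minus IL-2 effect on the log2 scale, the differences among 40S proteins were 1.39 for Rps2, 1.11 for Rps12, 1.08 for Rps27a, 0.93 for Rps18, 0.85 for Rpsa and 0.84 for Rps23. Among 60S proteins they were 1.09 for Rpl3, 1.05 for Rpl36a, 1.00 for Rpl27a, 0.96 for Rpl22, 0.92 for Rpl14, 0.86 for Rpl7a, 0.76 for Rpl6, 0.73 for Rpl32, 0.71 for Rpl5, 0.60 for Rpl23 and 0.52 for Rpl30. Rps4l alone of the 18 had a negative difference, -2.28. No test for an outlying sample was run, since each group holds 2 libraries.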

How the results depend on the processing

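Counts are of members called. With RLE factors 2 rose in IL-21 against no cytokine. With library size alone 0 rose there and 4 rose in IL-21 against IL-2. The median of all genes moved to -0.17 for IL-2 against no cytokine, 0.13 for LDHi in IL-2 and -0.22 for the interaction, so changes are relative to that shift. DESeq2 called more higher: 22 in IL-2 against no cytokine, 3 in IL-21 against no cytokine, 3 in IL-21 against IL-2, 33 with LDHi in IL-21, 34 in IL-21 with LDHi against IL-2 with LDHi, and 35 in the interaction. With no filter 2 rose in IL-21 against IL-2. With the RPKM filter 0 rose in IL-21 against no cytokine and 2 against IL-2, while 0 fell with LDHi in IL-21, 1 fell in IL-21 with LDHi against IL-2 with LDHi, and 0 were negative in the interaction. Both limma fits gave 5 higher and 0 lower in IL-2 against no cytokine, 0 higher in IL-21 against no cytokine or against IL-2, 0 higher and 2 lower with LDHi in IL-2, 1 higher with LDHi in IL-21, 0 higher in IL-21 with LDHi against IL-2 with LDHi, and 1 in the interaction. Fits of only the groups compared gave 0 higher in IL-21 against no cytokine, 0 higher and 4 lower for IL-21 over IL-2, 6 higher and 46 lower with LDHi in IL-2, 1 higher and 0 lower with LDHi in IL-21, and 71 higher in IL-21 with LDHi against IL-2 with LDHi.

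With both libraries that stood apart left out, 21 rose and 8 fell in IL-2 against no cytokine, 3 rose in IL-21 against no cytokine, 15 rose in IL-21 against IL-2, 3 rose and 43 fell with LDHi in IL-2, 5 fell with LDHi in IL-21, 70 rose in IL-21 with LDHi against IL-2 with LDHi, and 44 were positive in the interaction. Leaving out 1 library at a time gave 5 to 24 higher and 0 to 2 lower in IL-2 against no cytokine, 0 to 3 and 0 to 19 in IL-21 against no cytokine, 0 to 2 and 4 to 47 in IL-21 against IL-2, 0 to 2 and 2 to 27 with LDHi in IL-2, 2 to 58 and 0 to 3 with LDHi in IL-21, 4 to 53 and 0 to 2 in IL-21 with LDHi against IL-2 with LDHi, and 2 to 62 and 0 to 1 in the interaction. The labels do not say that a replicate number marks a shared animal or batch. Over 10 pairs of groups the correlation of same-numbered deviations was over 0.1 in 3 pairs, and ran from -0.15 to 0.48 over all genes and from -0.72 to 0.77 over the members, so the numbers were not taken as pairs. With the number as a replicate block 0 members rose in IL-21 against no cytokine, the calls of Rps27l with LDHi in IL-2, of Rps12 in the interaction and of Rpsa in IL-21 with LDHi against IL-2 with LDHi were lost, and the other counts stayed within 1.5 times. Of 62 named changes 12 kept their call under every alternative and 0 reversed. Why settings gave other counts was not tested, beyond the fewer libraries or genes they hold. Depth limits Rps4l and Rpl39l most, with 511 and 285 reads over all libraries.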

Other observations

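2 B cell markers differed between replicates. Cd79a was at 6.01 RPKM in replicate 1 and 0.631 RPKM in replicate 2 of IL-21 with LDHi, at 4.55 and 0.299 RPKM in IL-21, at 0.959 and 0.282 RPKM in IL-2 with LDHi, at 0.349 and 0.0545 RPKM in IL-2, and at 4.48 and 0.518 RPKM without cytokine. Cd79a was higher in replicate 1 in each of the 5 groups. Cd79b was higher in replicate 1 in 4 groups and ran the other way in IL-2 with LDHi, with 7.41 and 7.76 RPKM in replicates 1 and 2. Both were chosen after their values were seen.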
